A study of Mus musculus with 4 samples.

Results

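The genes described here are 10 regulators of actin and of the growth cone, the motile tip of an extending axon: Evl, Enah, Dbn1, Cfl1, Pfn1, Pfn2, Actb, Actg1, Marcks and Gap43. They were chosen by symbol and make up 10 of the 27998 gene rows of the Illumina matrices and 43 of the 31986 isoform rows of the Nanopore matrices. The cells came from cortex, hippocampus and sub ventricular zone of 1 C57BL/6 mouse at embryonic day 18 and carried no treatment or transgene named in the labels. They were captured in 1 emulsion of droplets that was divided into aliquots of 190 and 951 cells. Each aliquot gave a short-read Illumina library and a long-read Nanopore library of the same cDNA, so there are 4 libraries. A UMI is a random tag that marks 1 captured RNA molecule, and all values are counts of UMIs. The aliquots are technical replicates (n = 2), so every p-value covers the spread between aliquots of 1 cell suspension and not the spread between animals.

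An axon grows as actin filaments are built at the leading edge of its growth cone and taken apart behind it. Actb and Actg1 encode beta and gamma cytoplasmic actin, the monomers of these filaments. Profilins (Pfn1, Pfn2) bind actin monomers and feed them to growing filament ends, where the Ena/VASP proteins Evl and Enah (Mena) promote elongation. Cofilin (Cfl1) severs and disassembles filaments, and drebrin (Dbn1) binds along their sides. Marcks and Gap43 are substrates of protein kinase C at the inner face of the membrane, and Gap43 is a classic protein of growing axons.

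The annotation of GRCm38 (Gencode vM21) places Evl on chromosome 12 (108554720 to 108688516, plus strand). The balance of its isoforms Evl-201 and Evl-202 in each class is reported below. They differ by exon 11 of Evl-201, a coding exon of 63 bases at chr12:108683348-108683410, which keeps the reading frame since its length is a multiple of 3. The exon is shown in capitals between 15 bases of each neighbouring exon, beside the junction that Evl-202 has in its place.
Evl-201: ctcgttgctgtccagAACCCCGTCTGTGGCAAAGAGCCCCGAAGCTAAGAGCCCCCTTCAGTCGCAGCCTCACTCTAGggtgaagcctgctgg
Evl-202: ctcgttgctgtccagggtgaagcctgctgg

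Dbn1 lies on chromosome 13 (55473429 to 55488111, minus strand), and its isoforms Dbn1-202 and Dbn1-203 differ by the first 3 bases of exon 13 of Dbn1-202, at chr13:55474559-55474561. These coding bases, shown in capitals, lie between 2 alternative splice acceptors. The authors matched exon ends within a margin of 2 bases, which is just under this difference.
Dbn1-202: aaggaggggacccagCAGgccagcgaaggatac
Dbn1-203: aaggaggggacccaggccagcgaaggatac

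Another drebrin isoform, Dbn1-201, holds a coding exon of 138 bases at chr13:55476636-55476773 that the other two lack. It is shown because drebrin is known for an inserted exon that appears in the form of mature neurons, and because it had few UMIs here.
Dbn1-201 exon: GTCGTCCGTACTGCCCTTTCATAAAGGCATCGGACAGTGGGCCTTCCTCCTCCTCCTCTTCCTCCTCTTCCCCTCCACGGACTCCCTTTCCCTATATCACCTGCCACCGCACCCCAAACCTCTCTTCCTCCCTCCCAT

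Cells with fewer than 1400 detected Illumina genes were left out, which kept 186 of 190 and 935 of 951 cells. The Illumina libraries then held 1809081 and 8295650 UMIs and the Nanopore libraries 993220 and 4889148 isoform-assigned UMIs. Cells were clustered without the members and without the 81 genes of the actin and growth cone list used below, and clusters were named from marker genes. This gave, in the 190 and the 951 cell aliquot, 13 and 56 radial glia-like cells (neural stem cells), 25 and 95 cycling radial glia-like cells and 16 and 71 intermediate progenitor-like cells. Among neurons there were 37 and 194 immature and 43 and 237 mature glutamatergic-like cells, and 22 and 124 immature and 26 and 145 mature GABAergic-like cells. The 4 and 13 Cajal-Retzius-like cells were too few for the fits. Radial glia markers summed to 165 and 186 UMIs per 10000 in the radial glia-like sums and to at most 24.9 in any other class. Despite its name, the cycling radial glia-like class had only 24.9 and 22.2, near intermediate progenitor-like cells at 19.4 and 20.8. Cajal-Retzius markers summed to 41.9 and 55.5 in their own class and to at most 1.15 in any other. The lists of the other classes separated less. Cycling markers reached 44.5 and 29.1 in radial glia-like cells against 63.0 and 51.1 in cycling cells, immature glutamatergic markers reached 30.1 in mature glutamatergic-like cells against 34.3 and 35.5 in their own, and mature glutamatergic markers 35.2 in immature GABAergic-like cells against 52.1 and 53.7. The cycling class was defined by proliferation genes, and 81 of its 120 cells had a UMI of Dlx1 or Dlx2, transcription factors of the GABAergic lineage. An immature glutamatergic-like cluster of 83 cells had none of its own markers among its 10 leading genes. The 3 cells with at least 3 microglia markers lay in the intermediate progenitor-like class. In the radial glia-like class, 2 cells had at least 3 mural and 1 at least 3 endothelial markers, and mural markers summed to 0.222 and 1.84 and endothelial markers to 0.0555 and 1.09 UMIs per 10000. Leaving out the cells with non-neural markers, an alternative added after the data were seen, changed no call of a member against radial glia-like cells. Hemoglobin transcripts, which free RNA brings into droplets, lay between 5.30 and 7.82 UMIs per 10000 in every class. The aliquots shared 12 barcodes among the cells kept.

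The levels below are Illumina UMIs of a gene per 10000 UMIs of the summed cells of a class, given for the 190 and then the 951 cell aliquot. Actin transcripts were lowest in radial glia-like cells. Actb was at 17.3 and 19.6 in these cells, at 26.3 and 34.0 in intermediate progenitor-like cells, at 37.8 and 43.9 in immature and at 47.5 and 47.1 in mature glutamatergic-like cells. In immature GABAergic-like cells it was at 43.5 and 48.3, and in mature ones at 44.5 in both aliquots. The lowest of these neuronal values lay above every value of the progenitor classes. How many other genes are separated in this way was not counted. Cajal-Retzius-like cells, which are also neurons, had 25.3 and 28.9, within the range of the progenitor classes. Actg1 was at 31.7 and 25.8 in radial glia-like cells, at 54.9 and 54.0 in mature glutamatergic-like cells and at 44.1 and 44.2 in mature GABAergic-like cells. Its highest levels, 60.8 and 59.5, were those of immature GABAergic-like cells, and its levels in the radial glia-like, cycling and intermediate progenitor-like classes overlapped.

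**Figure D1:**
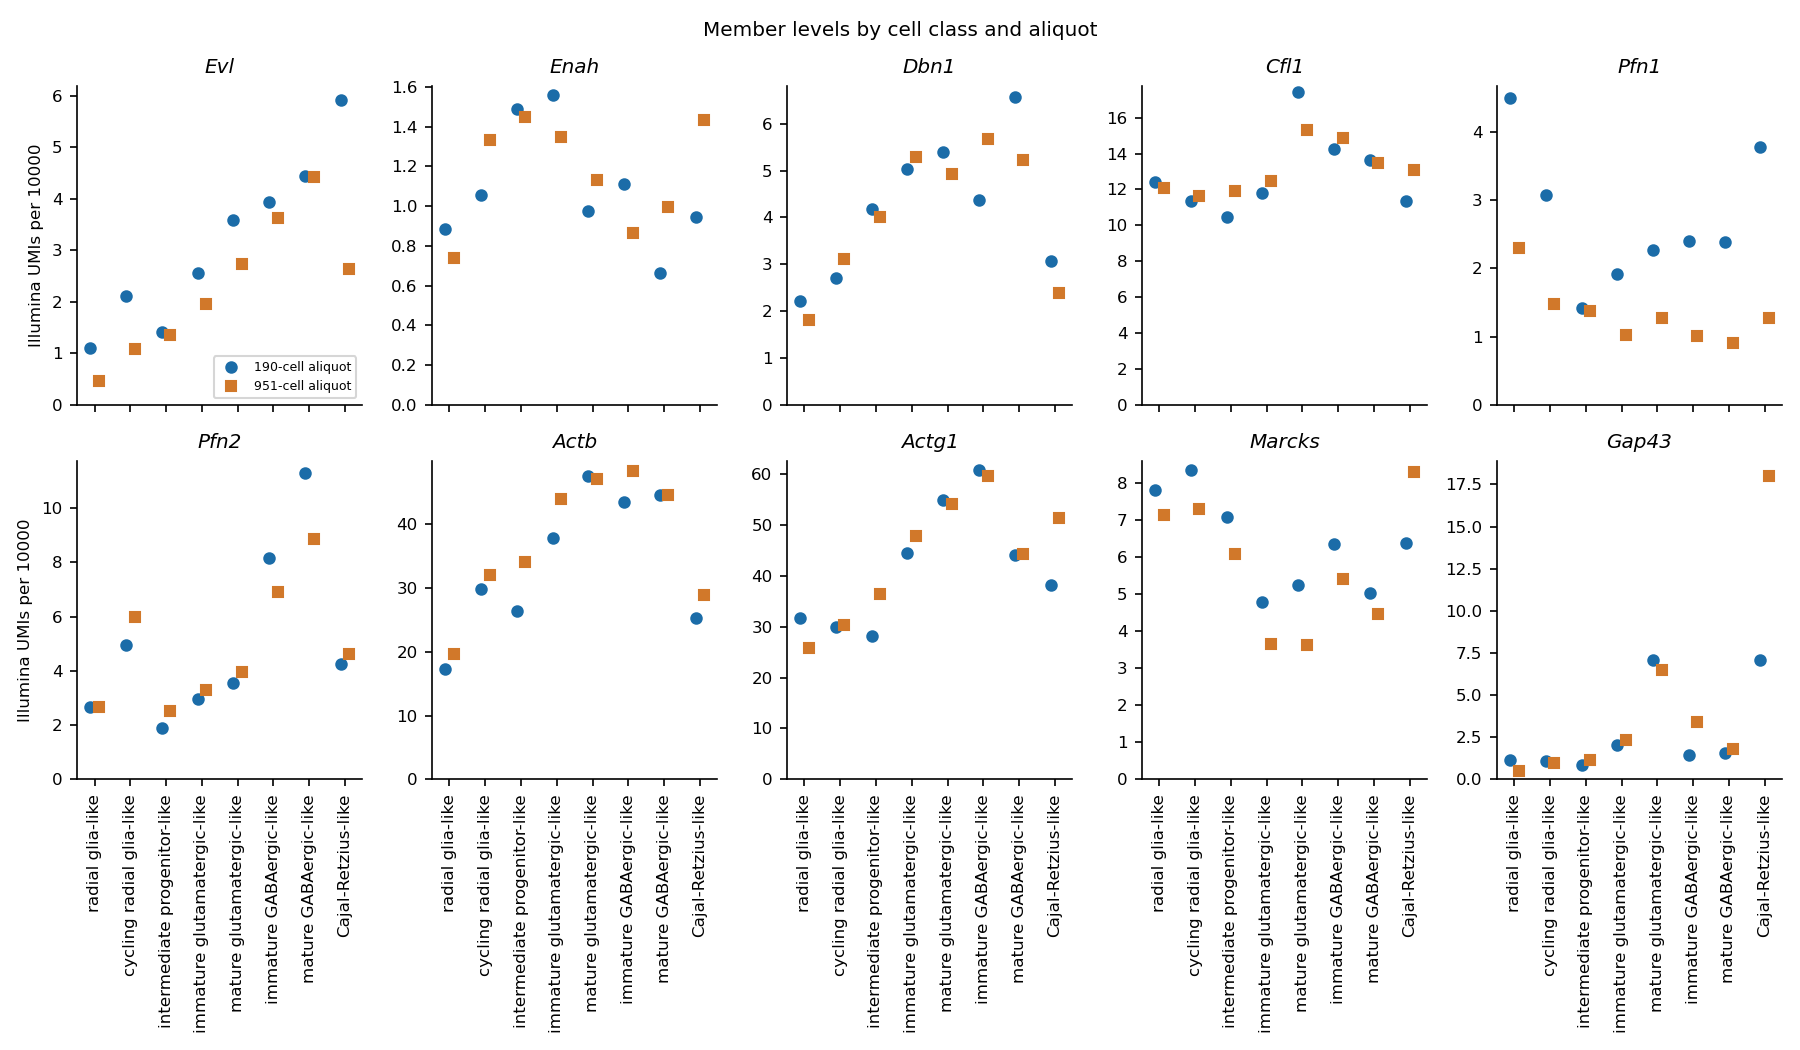
Illumina UMIs per 10000 (vertical axes, each from 0) of the 10 members in 8 cell classes, with 1 point per aliquot. Evl, Dbn1, Actb and Gap43 have their lowest means in radial glia-like cells, where Gap43 overlaps intermediate progenitor-like and cycling cells, Marcks and Pfn1 are high there, and the Pfn1 points of the 190 cell aliquot lie above those of the 951 cell aliquot in every class.

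Evl and Dbn1 were higher in neurons than in radial glia-like cells. Evl was at 1.11 and 0.457 in radial glia-like, 1.42 and 1.35 in intermediate progenitor-like, 2.55 and 1.95 in immature glutamatergic-like and 3.58 and 2.74 in mature glutamatergic-like cells. In immature and mature GABAergic-like cells it was at 3.94 and 3.62 and at 4.44 and 4.42, the highest of the classes fitted. Dbn1 was at 2.22 and 1.80 in radial glia-like, 2.71 and 3.10 in cycling and 4.18 and 4.001 in intermediate progenitor-like cells. The 4 neuronal classes held Dbn1 at 4.37 to 6.57 and overlapped each other. Enah, the other Ena/VASP member, had another order, with 1.49 and 1.45 in intermediate progenitor-like and 1.56 and 1.35 in immature glutamatergic-like cells, 0.977 and 1.13 in mature glutamatergic-like and 0.663 and 0.994 in mature GABAergic-like cells. Its lowest mean was that of radial glia-like cells, at 0.888 and 0.738, which overlapped mature GABAergic-like cells.

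The profilins differed from each other in their distribution. Pfn2 was at 11.3 and 8.85 in mature and 8.14 and 6.92 in immature GABAergic-like cells, against 3.56 and 3.96 in mature and 2.96 and 3.28 in immature glutamatergic-like cells. Radial glia-like cells had 2.66 and 2.68, intermediate progenitor-like cells 1.91 and 2.53, and cycling cells 4.94 and 5.97. For Pfn2, no neighbours in the order of the 8 classes overlapped. That order was taken from the same 2 values per class, and how many other genes have such an order was not counted. Among cycling cells, Pfn2 was at 5.98 and 8.73 where a Dlx1 or Dlx2 UMI was present (20 and 61 cells) and at 2.02 and 2.43 where none was (5 and 34 cells), a division chosen after the data were seen. Pfn1 had its highest mean in radial glia-like cells, at 4.49 and 2.29, but the aliquots differed. Over all cells Pfn1 was at 2.56 and 1.31, a ratio of 1.957 between the aliquots, and the Nanopore libraries gave a ratio of 2.01. Of 1564 genes with at least 1000 Illumina UMIs, 26 had a ratio of at least that of Pfn1, itself included.

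Cofilin varied least of the 10 members by class means. Cfl1 ranged from 10.5 to 17.4 over all classes and aliquots, with its highest level in mature glutamatergic-like cells at 17.4 and 15.3, and its class means differed by at most 1.46-fold. Marcks had its highest means in radial glia-like and cycling cells, at 7.82 and 7.13 and at 8.37 and 7.29, and was lower in mature glutamatergic-like cells at 5.25 and 3.63 and mature GABAergic-like cells at 5.04 and 4.47. Gap43 spanned the widest range of the 10 members. It was at 7.08 and 6.49 in mature glutamatergic-like cells, 2.07 and 2.36 in immature glutamatergic-like cells, 1.46 and 3.42 in immature and 1.59 and 1.80 in mature GABAergic-like cells. Radial glia-like cells had 1.16 and 0.492, which overlapped intermediate progenitor-like cells at 0.851 and 1.13 and cycling cells at 1.09 and 0.969, and the Cajal-Retzius-like cells had 7.09 and 18.03, from 30 and 226 UMIs. Its mean in mature glutamatergic-like cells was 8.19-fold that in radial glia-like cells.

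Which members change between neural stem cells and neurons was asked with the radial glia-like sums as the reference, in 1 edgeR quasi-likelihood fit over the 7 classes and 8556 genes with Benjamini-Hochberg adjusted p. Both comparisons share these radial glia-like sums. In mature glutamatergic-like cells 7 members were higher and 1 was lower, where 17.2% of all genes tested were called higher and 16.4% lower. Gap43 was 9.92-fold higher (log2 difference 3.31 ± 0.41 SE, adjusted p = 3.20e-05), Evl 4.90-fold (2.29 ± 0.33, adjusted p = 9.33e-06) and Dbn1 2.71-fold (1.44 ± 0.20, adjusted p = 7.01e-08). Actb was 2.66-fold higher (1.41 ± 0.15, adjusted p = 4.44e-11) and Actg1 1.97-fold (0.98 ± 0.14, adjusted p = 1.19e-07). Pfn2 (0.55 ± 0.19, adjusted p = 0.0205) and Cfl1 (0.47 ± 0.15, adjusted p = 0.0132) rose less. Marcks fell by 0.70 on the log2 scale (SE 0.18, adjusted p = 0.00167). Enah (0.52 ± 0.24, adjusted p = 0.102) and Pfn1 (-0.86 ± 0.62, adjusted p = 0.354) did not pass. Both passed when the aliquot entered as a block (adjusted p = 0.0133 and 1.56e-07), where 3775 of 8556 genes were called. Leaving out 1 sum ended 3 of these calls. Cfl1 missed the threshold without the 190 cell sum of mature glutamatergic-like cells or without either radial glia-like sum (adjusted p = 0.0562 to 0.104), Pfn2 without the 951 cell sum of mature glutamatergic-like cells or either radial glia-like sum (0.0796 to 0.189) or by DESeq2 (0.115), and Marcks without the 951 cell sum of mature glutamatergic-like cells (0.138).

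In mature GABAergic-like cells 6 members were higher than in radial glia-like cells and 1 was lower, against 14.8% and 16.8% of all genes. Evl was 6.38-fold higher (2.67 ± 0.33, adjusted p = 2.13e-06) and Pfn2 3.55-fold (1.83 ± 0.20, adjusted p = 2.19e-10). Dbn1 (1.49 ± 0.20, adjusted p = 6.94e-08), Actb (2.29-fold, adjusted p = 4.62e-09) and Actg1 (0.55 ± 0.14, adjusted p = 0.00145) rose as well. Gap43 was 2.335-fold higher (1.22 ± 0.42, adjusted p = 0.0454), a call that was lost with DESeq2 size factors (adjusted p = 0.0527), without either mature GABAergic-like sum or without the 951 cell radial glia-like sum, when the difference was 0.52 (adjusted p = 0.403). Actg1 was also lost without that radial glia-like sum (0.42, adjusted p = 0.0665). Marcks fell by 0.72 (SE 0.19, adjusted p = 0.00192). Cfl1 (0.08 ± 0.15), Enah (0.16 ± 0.27) and Pfn1 (-1.24 ± 0.68, adjusted p = 0.227) did not pass, and Pfn1 passed with the block (adjusted p = 1.28e-09) and without a filter on low counts (adjusted p = 0.00844). The block called 3348 of 8556 genes. Neuronal transcripts were also present in the radial glia-like sums and more so in the 190 cell aliquot, with Stmn2, a tubulin regulator of neurons, at 3.38 and 0.878 and Neurod6 at 1.22 and 0.457. Gap43 and Evl were also higher in the radial glia-like sum of the 190 cell aliquot. Over all cells Evl was higher in that aliquot too, at 2.87 and 2.27, while Gap43 was lower, at 3.25 and 3.53. The part of neuronal transcripts in the members' levels was not tested. Leaving out cells called as doublets kept 11 of 13 radial glia-like cells in the 190 cell aliquot and 55 of 56 in the 951 cell aliquot.

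**Figure D2:**
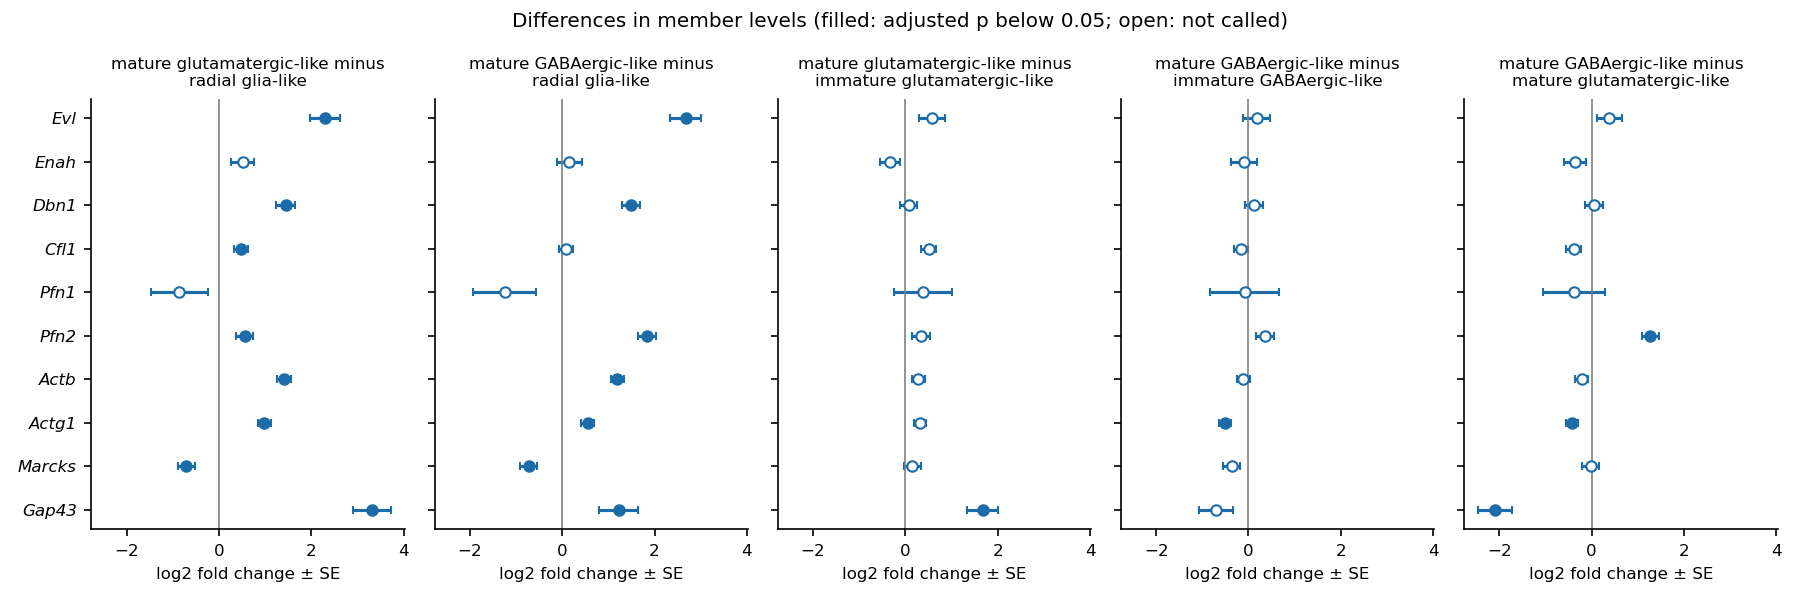
Log2 differences in level of the 10 members (horizontal axes, with SE as bars) in 5 comparisons of cell classes. Filled points passed the threshold, which 8 members did in mature glutamatergic-like and 7 in mature GABAergic-like cells against radial glia-like cells, 1 in each comparison of maturation and 3 in the comparison of the mature classes.

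Nanopore sums over the isoforms of each gene were put through the same radial glia comparisons. They come from the same droplets, and their UMIs were assigned with the Illumina data as a guide. The differences in mature glutamatergic-like cells were 4.15 for Gap43, 3.65 for Evl, 1.70 for Dbn1, 1.64 for Actb and 1.10 for Actg1, all past the threshold. Marcks differed by -0.59 with an SE of 0.48 and was not called (adjusted p = 0.397). In mature GABAergic-like cells the Nanopore difference of Pfn2 was 2.05 (adjusted p = 6.87e-16) and that of Evl 4.204 (adjusted p = 0.000661), while Marcks again was not called (-0.58, adjusted p = 0.459). The radial glia-like sums of the 190 and 951 cell aliquots held only 11 and 6 Nanopore UMIs of Evl and 13 and 17 of Gap43. The sizes of the Evl and Gap43 differences rest on these few UMIs.

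The classes named immature and mature in each lineage were compared with each other. In the GABAergic-like lineage the immature class led with Ebf1, Isl1, Zfhx3 and Foxp2 and the mature class with Sst, Maf, Nxph1 and Htr3a. A difference of neuron type can therefore not be told apart there from one of maturation. In the glutamatergic-like lineage Gap43 alone passed, 3.19-fold higher in mature cells (1.67 ± 0.34, adjusted p = 0.0181), where 3.55% of all genes were called. Without the 83-cell cluster that lacked its own leading markers the difference was 1.71 (adjusted p = 0.0076). Without the immature sum of the 190 or the 951 cell aliquot it was 1.55 and 1.83 (adjusted p = 0.0929 and 0.143). Cfl1 lay just outside the threshold (0.50 ± 0.15, adjusted p = 0.0508). With the aliquot as a block 6 members were called higher, namely Gap43, Cfl1 (adjusted p = 1.38e-06), Evl (0.000586), Actg1 (0.00244), Actb (0.00287) and Pfn2 (0.0370). The block called 960 of all 8556 genes in this comparison.

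In the GABAergic-like lineage Actg1 was 1.42-fold lower in mature than in immature cells (-0.50 ± 0.14, adjusted p = 0.0292), where 2.49% of all genes were called. The Nanopore sums gave -0.54 (adjusted p = 0.000676), DESeq2 gave an adjusted p of 0.156 and a fit without a filter on low counts 0.371, and the call was lost without any 1 of the 4 sums compared (adjusted p = 0.0792 to 0.227). Actb differed by -0.11 ± 0.14 in the same comparison. Gap43 differed by -0.70 ± 0.38 (adjusted p = 0.616) and was called lower with the aliquot as a block (-0.84, adjusted p = 0.0133), where 455 of 8556 genes were called. Without the 190 cell sum of immature GABAergic-like cells the Gap43 difference was -1.08.

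For Gap43 and Actg1 the difference between mature and immature classes was not the same in both lineages. It is called the maturation difference here, though in the GABAergic-like lineage it cannot be told apart from one of neuron type. The glutamatergic minus the GABAergic maturation difference was 2.37 ± 0.51 for Gap43 (adjusted p = 0.0309) and 0.82 ± 0.19 for Actg1 (adjusted p = 0.00827), in a test that called 2.2% of all genes. Nanopore sums gave 2.78 (adjusted p = 3.30e-05) and 0.76 (adjusted p = 0.000524). With the aliquot as a block Cfl1 (0.66, adjusted p = 4.53e-05) and Actb (0.40, adjusted p = 0.00943) were called too, where 462 of 8556 genes were called. Cfl1 was also called with DESeq2 size factors (adjusted p = 0.0369), with Nanopore sums (0.0182) and without cells with non-neural markers (0.0489). Without the 951 cell sum of immature GABAergic-like cells, the Gap43 difference was 1.42 (adjusted p = 0.141) and that of Actg1 0.77 (adjusted p = 0.0583), and without the 190 cell sum of immature glutamatergic-like cells they were 2.24 (adjusted p = 0.0662) and 0.71 (adjusted p = 0.0806). The Gap43 call was also lost without the 951 cell sum of immature glutamatergic-like cells (2.54, adjusted p = 0.0892) or either mature GABAergic-like sum (2.28 and 2.595, adjusted p = 0.152 and 0.183), or with the listed genes kept for clustering (2.12, adjusted p = 0.0642), and that of Actg1 without a filter on low counts (0.77, adjusted p = 0.18).

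The mature neurons of the lineages were then compared with each other. Pfn2 was 2.42-fold higher in mature GABAergic-like than in mature glutamatergic-like cells (1.27 ± 0.19, adjusted p = 1.18e-06), and it stayed past the threshold without any 1 sum (adjusted p at most 5.49e-05). Gap43 was 4.25-fold lower (-2.09 ± 0.36, adjusted p = 0.00232), with an adjusted p of 0.0713 without the 951 cell sum of mature GABAergic-like cells. Actg1 was 1.34-fold lower (-0.43 ± 0.14, adjusted p = 0.0357) and missed the threshold without any 1 of the 4 sums (0.082 to 0.235), without doublets (0.0983), without a filter on low counts (0.184) and by DESeq2 (0.279). These were 3 of 10 members, where 9.61% of all genes were called. With the aliquot as a block Evl (0.47, adjusted p = 0.0048), Cfl1 (-0.38, adjusted p = 0.000479) and Actb (-0.22, adjusted p = 0.0337) were called as well, where 1371 of 8556 genes were called. Mature GABAergic-like cells had a median of 5030 UMIs and mature glutamatergic-like cells of 11388.5. The part of this difference in depth was not tested.

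The balance within each pair of close relatives was also read as a share of UMIs, which was compared between classes and not tested. Actb made up 35.3% (95% exact binomial interval 32.2 to 38.6) and 43.2% (41.6 to 44.8) of the Actb and Actg1 UMIs in radial glia-like cells. It made up 49.9% and 51.3% in cycling and 50.2% and 50.2% in mature GABAergic-like cells. In immature GABAergic-like cells the share was 41.7% and 44.8%, below every value of the mature ones. The Nanopore UMIs gave 32.4% and 41.7% in radial glia-like and 50.8% and 50.3% in mature GABAergic-like cells. The actins are nearly identical in their coding sequence and have processed copies in the genome, as do Cfl1 and Pfn1, so counts of these genes are uncertain to the extent that reads could be placed on a copy.

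Pfn2 made up 37.2% and 53.9% of the profilin UMIs in radial glia-like cells and 82.5% and 90.7% in mature GABAergic-like cells, with 61.1% and 75.8% in mature glutamatergic-like cells. The share was lower in the 190 cell aliquot in every class, where Pfn1 was higher. These intervals and shares cover counting error only.

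**Figure D3:**
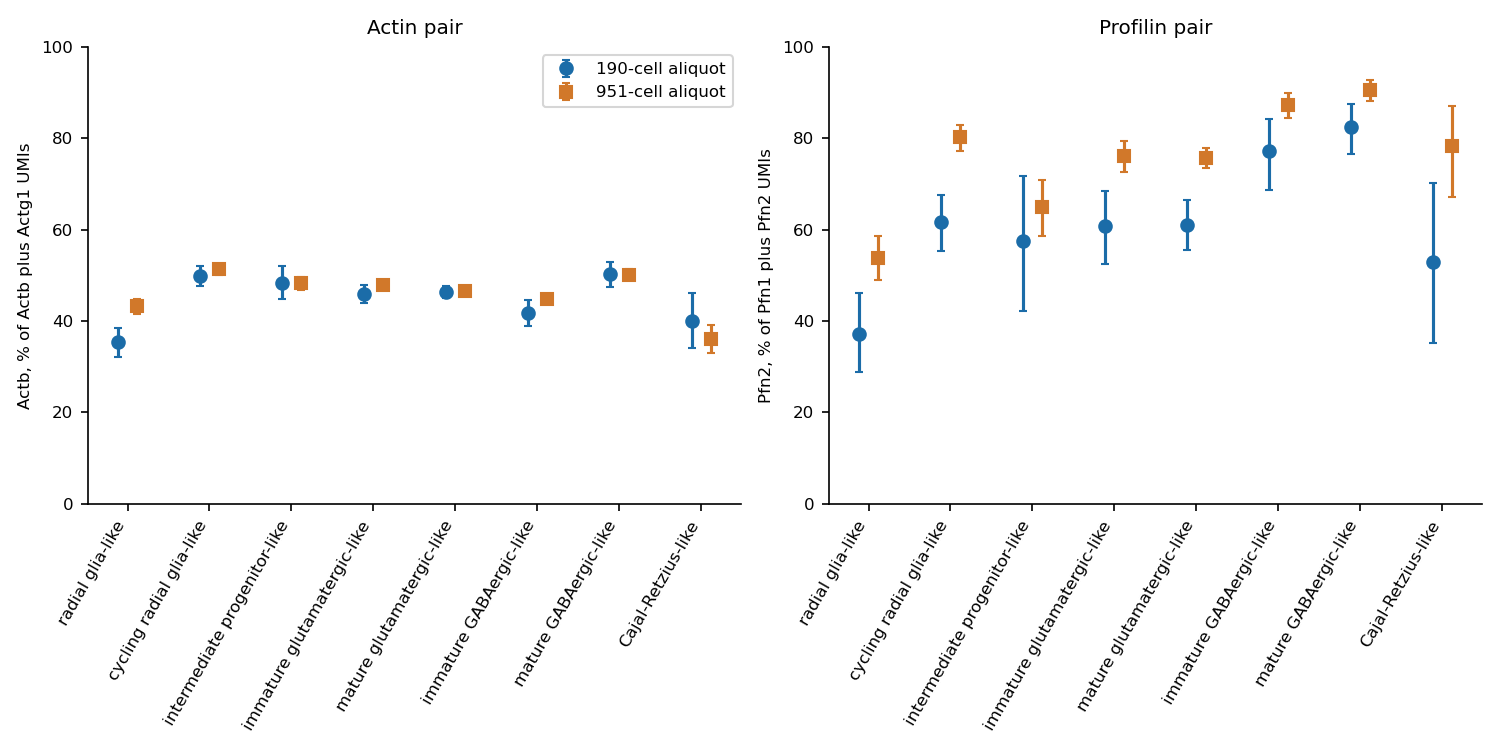
Share of Actb among Actb and Actg1 UMIs (left) and of Pfn2 among Pfn1 and Pfn2 UMIs (right) in percent, by class and aliquot, from Illumina counts with 95% exact binomial intervals as bars. The Actb share lies at 35.3% and 43.2% in radial glia-like cells, and the Pfn2 share is highest in mature GABAergic-like cells.

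Long reads were assigned to annotated isoforms, and UMIs without an isoform were not used. The shares below are therefore of the assigned UMIs and not of all captured molecules. For 7 members 1 isoform held over 98% of the UMIs: Actb-201 with 99.8%, Actg1-202 with 98.6%, Cfl1-202 with 100%, Marcks-201 with 100%, Pfn1-201 with 99.6%, Pfn2-201 with 98.6% and Gap43-201 with 98.4%. The second Gap43 isoform, Gap43-202, is annotated as a processed transcript of 2 exons. It made up 17 of 197 Gap43 UMIs in immature GABAergic-like cells (8.63%, 5.11 to 13.5) and 11 of 1641 in mature glutamatergic-like cells (0.67%), a difference that was not tested. Enah had 92 isoform-assigned UMIs in all, of which 62 fell to Enah-207, annotated as a retained intron of 3 exons. The other Enah isoforms with at least 5% in a class, Enah-202, Enah-203, Enah-206, Enah-209, Enah-211, Enah-212, Enah-214 and Enah-215, had 1 to 10 UMIs each.

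The isoforms of Evl differed between classes. Over all cells Evl-202, which skips the exon of 63 bases, had 1108 UMIs, Evl-201, which includes it, 450, and Evl-203, with another first exon, 79. Of the UMIs of Evl-201 and Evl-202, the exon was included in 51.5% (17 of 33) and 71.9% (41 of 57) in cycling cells and in 45.5% (5 of 11) and 62.2% (28 of 45) in intermediate progenitor-like cells. It was included in 33.3% (17 of 51) and 18.1% (32 of 177) in immature and 13.7% (16 of 117) and 18.7% (97 of 518) in mature glutamatergic-like cells. GABAergic-like neurons lay between, with 33.3% (11 of 33) and 33.8% (67 of 198) in immature and 35.0% (14 of 40) and 42.7% (97 of 227) in mature cells. Both values of mature GABAergic-like cells lay above both of mature glutamatergic-like cells. Radial glia-like cells had 4 of 11 and 3 of 5, too few to place them, and in Cajal-Retzius-like cells the exon was present in 1 of 35 UMIs.

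Mature GABAergic-like cells differed in their usage of the Evl isoforms from glutamatergic-like ones of the mature class (diffSpliceDGE of edgeR over 680 genes, adjusted p = 0.0191), where 2.06% of the genes were called. The adjusted p was 7.40e-05 with the aliquot as a block and 0.0933 without the 190 cell sum of mature glutamatergic-like cells, and the call was also lost without the 951 cell sum of either class. The test covers 3 isoforms of Evl together and does not tell which of them differed. Evl-203 also differed in share, at 10.0% (6.87 to 14.0) in mature GABAergic-like and 2.59% (1.51 to 4.11) in mature glutamatergic-like cells. Mature glutamatergic-like cells also differed from cycling cells, in a comparison added after the data were seen (adjusted p = 0.000676, where 16.2% of genes were called). Without the 951 cell sum of cycling cells the adjusted p was 0.110. Among cycling cells the exon was included in 68.1% (55.8 to 78.8) of 69 UMIs where Dlx1 or Dlx2 was present and in 52.4% (29.8 to 74.3) of 21 UMIs where they were not.

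**Figure D4:**
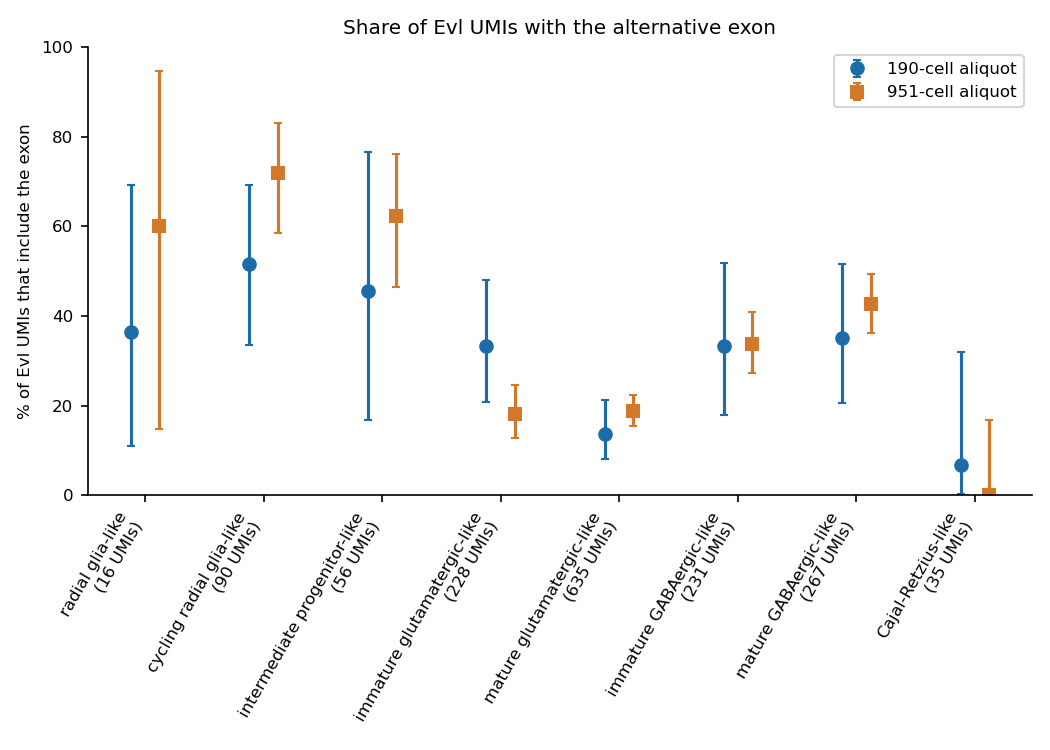
Share of Evl-201 among Evl-201 and Evl-202 UMIs (vertical axis, percent) by class and aliquot, with 95% exact binomial intervals as bars and the UMIs of both aliquots under each class name. Mature glutamatergic-like cells lie at 13.7% and 18.7%, mature GABAergic-like cells at 35.0% and 42.7% and cycling cells at 51.5% and 71.9%.

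The other comparisons called no change of isoform usage in a member. These compared mature glutamatergic-like (16.5% of genes called) and mature GABAergic-like cells (13.2%) with radial glia-like cells, and mature with immature glutamatergic-like (1.62%) and GABAergic-like cells (0.588%). The members that could be tested were Evl, Dbn1 and Actg1. Before adjustment 1 of these tests was under the threshold, that of Dbn1 in mature GABAergic-like against radial glia-like cells (adjusted p = 0.103 by diffSpliceDGE). The Evl difference of mature glutamatergic-like against radial glia-like cells had an adjusted p of 0.430, with 16 UMIs of Evl-201 or Evl-202 in the latter, which is few for a test of shares.

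With both aliquots pooled, Dbn1-202 made up 74.95% (71.0 to 78.6) of the Dbn1-202 and Dbn1-203 UMIs in mature glutamatergic-like, 81.2% (74.5 to 86.8) in mature GABAergic-like, 73.2% (64.4 to 80.8) in cycling and 61.1% (46.9 to 74.1) in radial glia-like cells. The pooled interval of radial glia-like cells lay under that of mature GABAergic-like ones, but the usage test between them did not pass after adjustment (adjusted p = 0.103 by diffSpliceDGE). Radial glia-like cells had 2 of 7 UMIs in the 190 and 31 of 47 in the 951 cell aliquot. In the latter aliquot their interval (50.7 to 79.1) overlapped that of mature GABAergic-like cells (73.7 to 87.2). All other pairs of the pooled intervals overlapped. Dbn1-201, with the exon of 138 bases, had 12 of 1454 Dbn1 UMIs, all in the 4 neuronal classes and 7 of them in mature glutamatergic-like cells. No UMI of it was found among 54 in radial glia-like and 123 in cycling cells, whose exact intervals reach 6.60% and 2.95%. The second Actg1 isoform past the filter, Actg1-204 with 451 UMIs, has all of its 5 exons within those of Actg1-202, so a shortened Actg1-202 molecule could be counted as it.

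In the same cell, Evl molecules of both kinds could be seen. Of 404 cells with at least 2 UMIs of Evl-201 or Evl-202, 212 had both isoforms, 163 had Evl-202 alone and 29 had Evl-201 alone. In mature glutamatergic-like cells 83 of 155 such cells had Evl-202 alone and 2 had Evl-201 alone. In cycling cells none of 20 had Evl-202 alone and 7 had Evl-201 alone. With at most 13 UMIs in a cell, 1 isoform alone is also what sampling of few molecules gives.

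The platforms were compared on the same cDNA to see how completely isoform-assigned long reads counted each member. The Nanopore UMIs amounted to 54.9% and 58.9% of the Illumina UMIs over all features. Pfn1 reached 86.2% and 90.2%, Pfn2 78.8% and 83.2%, Actb 77.8% and 81.3%, Actg1 76.2% and 84.2%, Cfl1 74.5% and 76.6%, Gap43 71.1% and 72.8% and Evl 61.9% and 70.5%. Marcks reached 42.1% and 32.8%, Dbn1 27.4% and 33.6% and Enah 7.50% and 8.08%, from 200 and 953 Illumina and 15 and 77 Nanopore UMIs.

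On library sums over 9855 genes, 5 members were higher in Nanopore and 2 lower by edgeR, where 20.2% of all genes were called higher and 30.3% lower. The rises lay between 0.47 ± 0.10 for Gap43 (adjusted p = 0.0105) and 0.64 ± 0.08 for Pfn2 (adjusted p = 0.00226) and included Actb, Actg1 and Cfl1. Enah was 6.55-fold lower (-2.71 ± 0.13, adjusted p = 0.000102) and Dbn1 1.70-fold lower (-0.76 ± 0.11, adjusted p = 0.00324). Evl (0.34 ± 0.14), Marcks (-0.47 ± 0.24) and Pfn1 (0.75 ± 0.42) did not pass, and all 3 passed with the aliquot as a block (adjusted p = 7.70e-05, 0.00382 and 3.16e-07). Most genes passed with the block, 6972 of 9855 against 4976 without it. These 3 members were at 2.87, 6.20 and 2.56 Illumina UMIs per 10000 in the 190 cell aliquot. In the 951 cell aliquot they were at 2.27, 4.93 and 1.31. A fit without 1 library leaves 1 for its platform, so there the difference between aliquots cannot be told apart from that between platforms. Without the 951 cell Nanopore library the difference of Evl was 0.42, and without the 190 cell Nanopore library that of Marcks was -0.815.

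**Figure D5:**
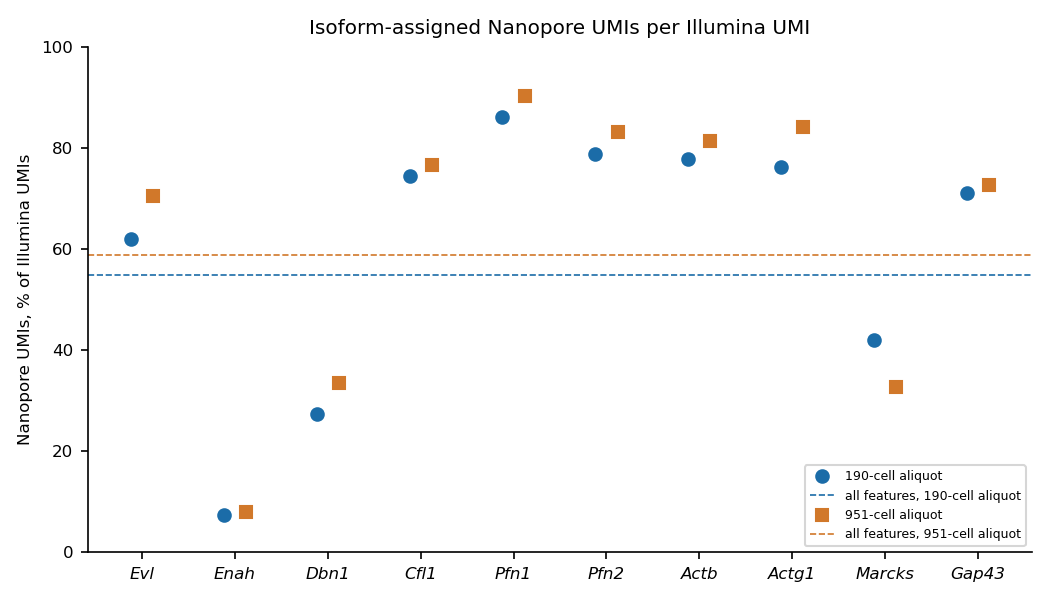
Isoform-assigned Nanopore UMIs of each member in percent of its Illumina UMIs, by aliquot, with dashed lines for all features (54.9% and 58.9%). Marcks, Dbn1 and Enah lie under the lines and the other 7 members above them.

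The other genes of the pathway were counted from a list of 81 in 8 groups, of which 75 were tested. In mature glutamatergic-like against radial glia-like cells 28 were higher and 13 lower, with a median log2 difference of 0.30 against -3.45e-05 over all genes, of which 17.2% were higher and 16.4% lower. In mature GABAergic-like cells 23 were higher and 10 lower, with a median of 0.25 against -0.03 over all genes, of which 14.8% were higher and 16.8% lower. The counts of lower genes, 13 and 10 of 75, lie near these shares. The growth cone adaptors include the collapsin response mediators and the stathmin Stmn2. They stood at 9 and 8 of 10 higher and none lower, with medians of 2.71 and 2.31. Stmn2 was among the markers that named the mature glutamatergic-like class, so its rise in that class is not independent of the naming. Of the 9 tested subunits of the Arp2/3 complex, which starts branched filaments, 6 and 4 were higher and 1 lower in each. The 7 tested formins and relatives had 1 and 0 higher and 1 lower in each, and the 13 bundling and crosslinking genes 2 higher and 4 and 3 lower. Of the 11 tested genes that bind or regulate actin monomers 4 were higher in each and 2 and 1 lower. The WAVE complex and N-WASP had 2 of 10 higher and 1 lower in each, the 9 tested capping and severing genes 2 and 1 higher and 1 lower, and the 6 membrane linkers 2 higher and 3 and 2 lower.

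In mature glutamatergic-like cells the largest rises were those of Coro1a, an actin-binding coronin, at 0.903 and 0.880 against 0 and 0.0468 in radial glia-like cells, of the adhesion molecule L1cam at 0.995 and 0.854 against 0.222 and 0.0117, and of Stmn2 at 27.8 and 30.1 against 3.38 and 0.878. The log2 differences of L1cam and Stmn2 were 4.16 and 3.99. Stmn2 was also a marker used to name the mature glutamatergic-like class. The largest falls were those of Wasf2 (-2.605 ± 0.40), the crosslinker Flna (-1.97 ± 0.38) and alpha-actinin Actn1 (-1.66 ± 0.40). In mature GABAergic-like cells Stmn2 (3.14), Crmp1 (3.03) and the neuronal tubulin Tubb3 (2.88) rose most. Ezrin (Ezr), a linker of actin to the membrane, fell by 3.99 and Flna by 2.01, and no other listed gene that fell had enough UMIs to be named.

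Over the 14 sums of class and aliquot, the gene most like each member in pattern was found among 2985 genes, for members whose class means spanned at least 1 on the log2 scale. These points share libraries and depth, and the correlations are a description. Evl was most like Tmsb10 (Pearson's r = 0.943) and Dync1i2 (0.930), Dbn1 most like Cdk5r1 (0.986) and Celf3 (0.982), and Actb most like Dpysl3 (0.958) and Ap3b2 (0.956). Actg1 was most like Stmn4 (0.942) and Ptms (0.936), Pfn2 most like Ccdc88a (0.930) and Sp9 (0.928), Pfn1 most like H1fx (0.876) and Tuba1c (0.864), and Gap43 most like Mgst3 (0.905) and Arpc3 (0.897). Tmsb10, Dpysl3, Arpc3 and Stmn4 encode an actin monomer binding thymosin, a collapsin response mediator, a subunit of Arp2/3 and a stathmin.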

How the data were processed

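Illumina reads of each aliquot were counted by the authors with Cell Ranger 2.0 on mm10, and the deposited values are UMI counts of genes in cells that were not normalized. The Nanopore values that the authors deposited are UMI counts of isoforms, from reads mapped with minimap2 and assigned to cells and UMIs guided by the Illumina data, after removal of chimeric reads and reads of mapping quality 0, with 1 consensus per UMI that had to match the exons of a Gencode vM18 transcript. UMIs without an isoform were not used here, so Nanopore gene counts are sums over isoforms.

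Cells were clustered with Seurat 5.3.0 on 1983 variable genes after removal of the members and listed genes, at a resolution of 0.8 over 11 canonical dimensions. Clusters were named from marker lists, with a scoring rule set after the clusters were seen. The Scrublet method in scanpy 1.11.5 called 3 of 186 and 4 of 935 cells as doublets, the latter 0.428% of the cells. Doublets were kept, with their removal as an alternative. Counts were summed per class and aliquot and compared in R 4.3.3 with edgeR 4.0.16 (TMM, filterByExpr, robust quasi-likelihood fit, adjusted p under 0.05), and isoforms with diffSpliceDGE. DESeq2 1.42.0 was an alternative. The scripts were tested on simulated data. Of 200 genes changed 2-fold, the fit of levels recovered 56% and that of platforms 71%. Of 200 genes with swapped isoform shares, the usage test recovered 66.5%. A member that did not pass may therefore still differ. The aliquot number pairs the sums, since sums of 1 number share an emulsion aliquot and library. Their deviations correlated with 0.14 to 0.33 over 21 pairs of classes and with 0.60 between platforms. For shares, 95% intervals are exact binomial ones, of counting error alone.

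All 10 members were named, with isoforms of at least 5% of a gene's UMIs in a class with at least 5 cells in each aliquot. From the pathway list the 3 largest rises and falls were named if called, with 100 or more UMIs in the sums compared and 1 direction in both aliquots. Genes of like pattern were the 2 with the highest r of log2(CPM + 10) among genes of at least 50 CPM. Dbn1-201, Actg1-204 and the division by Dlx1 and Dlx2 were chosen after their values were seen. The members and lists were chosen with earlier results of these data known. The deposited files give no coordinates, so sequences and positions come from Gencode vM21 (GRCm38, which is mm10).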

Additional observations from a re-analysis of the deposited data

Results flagged for a closer look

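The difference between mature and immature classes of 2 members was not the same in both lineages, by a test of the difference itself. In the GABAergic-like lineage these classes have other leading genes, so maturation and neuron type cannot be told apart. For Gap43 the glutamatergic minus the GABAergic difference was 2.37 on the log2 scale, with a rise in the glutamatergic-like lineage and a value under 0 that did not pass in the GABAergic-like one. For Actg1 it was 0.82, with a fall in the GABAergic-like lineage and 0.32 ± 0.14 in the glutamatergic-like one, which did not pass.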

How the results depend on the processing

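Between mature and immature glutamatergic-like cells, where 1 member was called, 6 were called with the aliquot as a block and 2 with DESeq2 size factors, Nanopore sums, resolutions of 0.6 or 1.2, listed genes kept for clustering, and without cells with non-neural markers or the cluster without leading markers, both added after the data were seen. Between mature and immature GABAergic-like cells the 1 call became 2 with the block and 0 without a filter on low counts or by DESeq2. Between the mature classes the 3 calls became 6 with the block. The 2 members whose difference between mature and immature classes was unlike between lineages became 4 with the block and 1 without a filter or with listed genes kept for clustering. Cfl1 was called there as well with DESeq2 size factors, with Nanopore sums and without cells with non-neural markers. For isoform usage, the call of Evl between the mature classes was lost at a resolution of 1.2 (adjusted p = 0.114), so that 0 members were called, and against cycling cells 2 members were called without a filter. At resolutions of 0.6 and 1.2 a cluster of 75 and 72 cells led by Crym, Nrp2 and Slit3 got no name and was left out. The mature glutamatergic-like class then held 36 and 169 cells at 0.6 and 36 and 172 at 1.2, against 43 and 237 in the main clustering. The cause of these changes was not tested.

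Leaving out 1 sum at a time gave 6 to 7 called members in mature glutamatergic-like and 5 to 7 in mature GABAergic-like against radial glia-like cells, 0 to 1 in each maturation comparison, 1 to 2 between the mature classes, 0 to 2 for the difference between lineages and 7 to 10 between platforms. For isoform usage it gave 0 to 1 between the mature classes and 0 to 2 against cycling cells. The block changed no other call than those given with it. Of all genes, the block moved the count of called genes from 304 to 960, 213 to 455, 822 to 1371 and 188 to 462 in the comparisons of maturation, of mature classes and of lineages, and of isoform usage from 11 to 40, 4 to 9 and 14 to 28. A lone sum is assumed to vary like the other classes.

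Depth limits Enah, with 92 Nanopore UMIs, and the isoforms of radial glia-like cells. The sums come from 1 animal, and the levels are shares of a class's UMIs and not molecules per cell.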
